A study of Mus musculus with 4 samples.

Results

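Solute carriers (Slc genes) are membrane proteins that move ions, sugars, amino acids, metals and metabolites across the plasma membrane and the membranes of organelles. The group described here holds each gene whose symbol on the array begins with Slc and a number. The platform annotation gave 139 such symbols on 179 clones, and 137 of the genes had values, among 8106 named genes with values in all. Slc5a1 and Slc28a3 had none. The symbol decides membership, and a few members are not carriers themselves: Slc9a3r1 encodes a scaffold that binds ion exchangers, and Slc3a2 encodes the heavy chain that places amino acid exchangers in the membrane. Members were grouped by symbol stem into sodium, chloride and bicarbonate carriers (16 genes), glucose and sodium-coupled solute carriers (9) and amino acid carriers (20). The other groups were the Slc25 family, mostly of the inner mitochondrial membrane (20), metal ion carriers (15), smaller families and a remainder of 29.

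Each array compared ventricles with septum of 1 male mouse on high salt with those of 1 on low salt. All mice were wild-type backcross animals, 129Ola/C57BL/6J with 1 renin gene, aged 12 to 13 weeks. Every animal, the low-salt controls included, had lost 1 kidney, ate food with 0.5 mg of sodium per g and was given deoxycorticosterone acetate (DOCA), a mineralocorticoid, for 5 weeks. Water held 1% NaCl for the high-salt animals and was plain tap water for the low-salt animals. The 6 mice formed 3 pairs on 4 arrays. Array 1 held pair 1, arrays 2 and 4 held pair 2 with the dyes exchanged, and array 3 held pair 3. High-salt RNA carried Cy3 on arrays 1 and 2 and Cy5 on arrays 3 and 4. Arrays 2 and 4 were averaged before any mean, so n was 3 pairs throughout. The deposited values are ratios without intensities, so whether a carrier, or a defining marker of heart muscle, was present in the tissue could not be checked, and fewer cells of a type and less RNA per cell cannot be told apart.

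Values are log ratios taken as base 2 and read as high over low salt, as the array titles word it. Whether the authors had already turned the ratios of the arrays with exchanged dye is not given in the sources used here, so this direction is not settled. Over the 137 Slc genes, Pearson's r was 0.53 between the arrays with Cy3 on high salt and 0.55 between those with Cy5, while the 4 coefficients across dye orientations lay between -0.44 and -0.20. The same mice on arrays 2 and 4 gave r = -0.36. Over all 8106 named genes, the coefficients were 0.57 and 0.47 within a dye orientation and -0.33 to -0.073 across orientations, and arrays 2 and 4 gave -0.073. These are descriptions across genes, which share arrays and are not replicates. Counts are therefore also given with arrays 1 and 2 turned, the reading that holds if the table gives Cy5 over Cy3. If it gives Cy3 over Cy5, all signs of the turned reading change.

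In the heart, sodium-calcium exchange ends each contraction, sodium-proton and bicarbonate carriers set cell pH, and chloride cotransporters set cell volume. Glucose enters through Slc2 carriers, lactate crosses through Slc16 carriers, and Slc25 carriers pass nucleotides, phosphate, acylcarnitine and malate between mitochondrion and cytosol. The design asks whether salt intake under DOCA altered cardiac gene expression, and the Slc genes are one set of transport functions that sodium load could bear on.

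As a group the Slc genes did not stand away from 0. Of 137, 70 had a mean above 0 and 67 below, against 49.8% and 50.2% of all 8106 named genes. Their median was 0.00053 ± 0.0073 (SD of the 3 pair medians), and that of all named genes was -0.00026 ± 0.014. Their means ran from -0.63 for Slc17a9, a vesicular nucleotide carrier, to 0.83 for Slc31a2. An absolute mean of at least 0.5 was found for 3 of them, Slc17a9, Slc31a2 and Slc38a2, against 2.1% of all genes. An SD over pairs larger than the absolute mean was found for 110 of them, 80.3%, against 79.4% of all named genes. No Slc gene passed an adjusted p of 0.05 by limma, with Benjamini-Hochberg adjustment over all 8106 genes, of which 0.0% passed. The smallest adjusted p of an Slc gene was 0.832. At an unadjusted p under 0.05 there were 6 Slc genes, 4.38% of them, against 5.44% of all named genes. Of these, 2 were above 0 (Slc1a5 and Slc35e1; 2.81% of all genes) and 4 below (Slc5a11, Slc25a11, Slc25a4 and Slc16a1; 2.63% of all genes).

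With arrays 1 and 2 turned, 67 Slc genes were above 0 and 70 below (46.7% and 53.3% of all genes), the median was -0.0052, and again 0 passed an adjusted p of 0.05 (0.0% of all genes). At an unadjusted p under 0.05, 5 were then above 0 (6.97% of all genes) and 23 below (13.8% of all genes). The Slc shares above 0 were under those of all genes in both readings, at 1.46% as deposited and 3.65% turned. The Slc shares below 0 were slightly over them, at 2.92% and 16.8%. Both readings come from the same 4 arrays, and these differences in share were not tested.

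**Figure D1:**
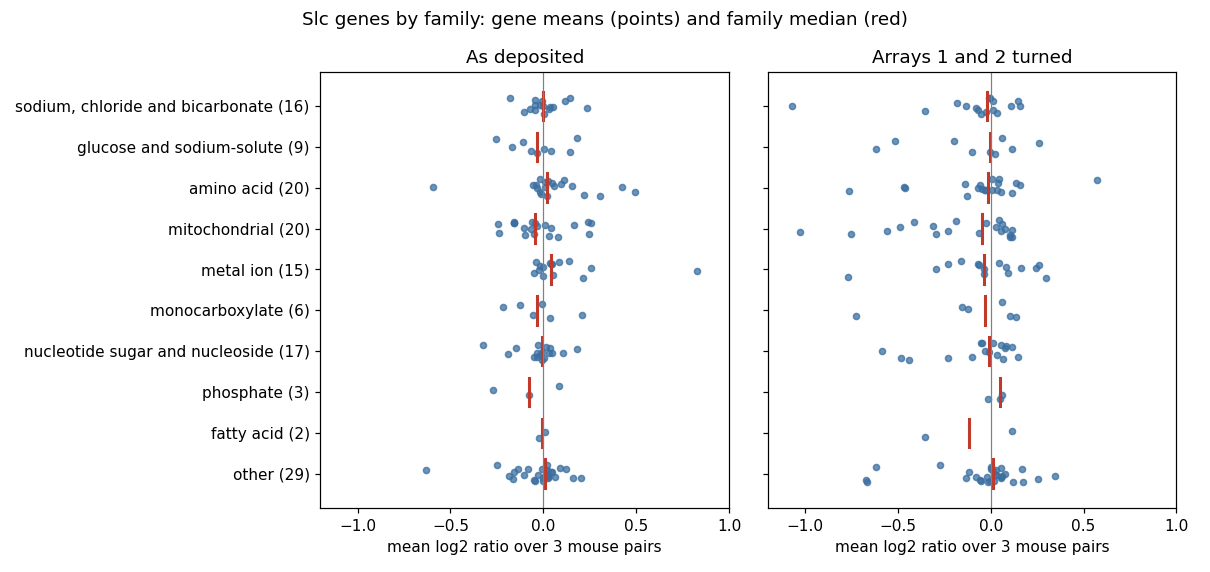
Mean log2 ratio over 3 mouse pairs (x axis) of each Slc gene (points), by family with the number of genes in brackets (y axis), as deposited on the left and with arrays 1 and 2 turned on the right; red bars are family medians. The medians of the families with at least 6 genes stay between -0.047 and 0.039 in both panels, while single genes such as Slc4a2 and Slc25a13 lie far below 0 only on the right.

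Sodium, chloride and bicarbonate carriers were centred on 0. Of 16 genes, 7 had a mean above 0 and 9 below, with a family median of -0.0039 ± 0.030 (SD of pair medians) as deposited and -0.018 with arrays turned. None reached an unadjusted p under 0.05 as deposited (5.44% of all genes). With arrays turned 2 did so, Slc4a2 and Slc26a10, both below 0 (13.8% of all genes). Slc8a1, the sodium-calcium exchanger of the heart muscle membrane, stood at -0.17, -0.051, 0.080 and 0.10 on arrays 1 to 4. Arrays 1 and 2 were below 0 and arrays 3 and 4 above, so its sign followed the dye orientation. Its mean was -0.020 ± 0.13 (SD, n = 3 pairs; 95% interval -0.24 to 0.20, limma adjusted p = 1.0) and its turned mean 0.11 (-0.036 to 0.25). Its 3 clones did not give 1 value. One stood at -0.35 ± 0.16 and was below 0 on all 4 arrays, one at 0.29 ± 0.28, and one at -0.00098 ± 0.034. Such clones can lie on different parts of the transcript, and the gene mean hides their difference.

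Slc12a2, the sodium-potassium-chloride cotransporter that loads cells with chloride, had 4 clones and gave -0.035, 0.086, -0.057 and 0.094 on arrays 1 to 4. Both arrays of pair 2 were above 0 and the other pairs below. Its mean was -0.00052 ± 0.079 (n = 3 pairs), with a 95% interval from -0.18 to 0.18. The interval covers the model's error of the clone average and not the spread between clones. The clone means ran from -0.12 to 0.12 and did not share 1 sign, which the average hides. The potassium-chloride cotransporters Slc12a4 and Slc12a7, which were singled out after their values were seen, stood at -0.18 ± 0.31 and -0.10 ± 0.25.

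Slc4a2 and Slc4a3 are chloride-bicarbonate exchangers that lower cell pH, and they differed widely in spread. Slc4a3 stood at -0.058, -0.065, -0.026 and -0.043 on arrays 1 to 4. All 4 values were below 0 and close together, with a mean of -0.046 ± 0.017 (n = 3 pairs; limma adjusted p = 1.0). Slc4a2 stood at 1.29, 1.34, -1.03 and -0.44. Both arrays with Cy3 on high salt were far above 0 and both with Cy5 far below, and pair 2 gave both signs. Its mean was 0.24 ± 1.18 as deposited (interval -1.21 to 1.68) and -1.07 ± 0.21 with arrays turned (interval -1.34 to -0.80; unadjusted p = 0.00036, limma adjusted p = 0.081). No gene of the table had a smaller adjusted p in the turned reading, and other genes, Slc25a26 and Slc25a39 among them, had the same value. The Slc4a2 values rest on 1 clone. A clone annotated to both Unc5b and Slc4a2, left out of the gene values, had a turned mean of 0.041. The bicarbonate cotransporter Slc4a4 was flat at 0.0023 ± 0.10, with 2 clones at -0.039 and 0.044.

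Slc26a10, of the Slc26 anion exchanger family, stood at 0.40, 0.41, -0.38 and -0.15 on arrays 1 to 4. Its sign followed the dye orientation, with a mean of 0.051 ± 0.40 as deposited and -0.35 ± 0.068 turned (unadjusted p = 0.0029, limma adjusted p = 0.0930). Slc24a3, a potassium-dependent sodium-calcium exchanger, was above 0 on all 4 arrays, at 0.25, 0.094, 0.10 and 0.081, with a mean of 0.14 ± 0.089. Slc4a1, the anion exchanger of red cells and also an erythroid marker, was below 0 on all 4 arrays with a mean of -0.044 ± 0.034. The scaffold gene Slc9a3r1 stood at 0.028 ± 0.22. These genes were also chosen after their values were seen.

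Sodium-phosphate carriers are a small family of 3 measured genes. Slc20a1, which imports phosphate into most cells, stood at -0.49, 0.011, -0.30 and -0.069 on arrays 1 to 4. Pairs 1 and 3 were below 0 and both arrays of pair 2 near it. The mean was -0.27 ± 0.23 (n = 3 pairs, limma adjusted p = 0.933), or -0.16 without pair 1, and 0.050 with arrays turned. Slc20a2, its paralogue, stood at 0.086 ± 0.12.

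The main glucose carriers of the heart, Slc2a4 and Slc2a1, changed sign with the dye orientation. Of 9 genes in the family, 4 had a mean above 0 and 5 below, with a median of -0.033 ± 0.12 as deposited and -0.0032 turned. At an unadjusted p under 0.05, 1 was below 0 as deposited (2.63% of all genes). With arrays turned, 1 was above 0 (6.97% of all genes) and 3 were below (13.8% of all genes). Slc2a4, the insulin-responsive GLUT4 of heart and skeletal muscle, stood at 0.72, 0.088, -0.82 and -0.55 on arrays 1 to 4. Arrays 1 and 2 were above 0 and arrays 3 and 4 below. On array 2 its 2 clones differed in sign, at 0.40 and -0.22, and their SDs over pairs were 0.36 and 1.20. Its mean was -0.11 ± 0.78 (interval -1.07 to 0.85) as deposited and -0.62 ± 0.27 turned (interval -0.95 to -0.29; unadjusted p = 0.0063, limma adjusted p = 0.109). Slc2a1, the basal glucose carrier GLUT1, had the same order of signs, at 0.41, 0.62, -0.74 and -0.17. It had a mean of -0.033 ± 0.62 as deposited and -0.52 ± 0.19 turned (unadjusted p = 0.0047, limma adjusted p = 0.101). Of the 3 Slc2a1 clones, 2 carried this pattern and the third stayed near 0, at -0.10 ± 0.078.

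Slc2a3, the neuronal-type carrier GLUT3, was near 0 at -0.064 ± 0.13. Slc5a11, a sodium-coupled inositol carrier, is among the 6 genes at an unadjusted p under 0.05. It stood at -0.22, -0.49, -0.30 and 0.013 on arrays 1 to 4. The arrays of pair 2 disagreed, at -0.49 and 0.013, and their average fell between the other pairs, so the small SD of the mean, -0.25 ± 0.040 (n = 3 pairs; unadjusted p = 0.013, limma adjusted p = 0.863), hides that difference. Turned, it stood at 0.058 ± 0.31.

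Amino acid carriers had more genes above than below 0, and the largest means in both directions came from carriers of glutamine and related neutral amino acids. Of 20 genes, 13 had a mean above 0 and 7 below, with a median of 0.020 ± 0.0097 (SD of pair medians) as deposited. With arrays turned there were 10 and 10, with a median of -0.012. The deposited family median was 0.024, -0.0067, 0.019 and -0.0025 on arrays 1 to 4, so both arrays of pair 2 lay just below 0. At an unadjusted p under 0.05, 1 was above 0 as deposited (2.81% of all genes) and 1 below turned (13.8% of all genes). Slc1a5, the neutral amino acid exchanger that imports glutamine, stood at 0.57, 0.55, 0.27 and 0.31 on arrays 1 to 4. All 4 were above 0, with the Cy3 arrays above the Cy5 arrays. Its mean of 0.42 ± 0.15 (n = 3 pairs; interval 0.19 to 0.66) had the smallest unadjusted p of any Slc gene, 0.0086 (limma adjusted p = 0.832), and the turned mean was -0.14 ± 0.42. Leaving out 1 pair gave 0.35 to 0.50.

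Slc38a2 and Slc38a1 are sodium-coupled carriers of small neutral amino acids, and Slc38a2 is known to be induced by amino acid shortage and by hypertonic medium. Slc38a2 stood at -1.40, -0.70, -0.0017 and -0.067 on arrays 1 to 4. All 4 were below 0, but only arrays 1 and 2, with Cy3 on high salt, were far from it. The mean was -0.60 ± 0.72 (interval -1.49 to 0.30, limma adjusted p = 0.995), it was -0.19 without pair 1, and the turned mean was 0.57 ± 0.73. Slc38a1, named after its values were seen, ran the other way, at 0.84, 1.21, -0.0079 and 0.084, with a mean of 0.49 ± 0.44 (limma adjusted p = 0.931) and a turned mean of -0.47 ± 0.42. For this gene too only arrays 1 and 2 were far from 0. Slc38a10, a less studied relative, stood at 0.020, 2.22, -0.67 and -0.98, and its arrays 2 and 4, of the same mice, were the farthest apart of all 4. It had a mean of -0.011 ± 0.65 and a turned mean of -0.76 ± 0.79.

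Slc6a6, the taurine carrier, serves an osmolyte that heart muscle holds at high levels. It stood at 0.65, -0.0068, 0.27 and -0.015 on arrays 1 to 4. Pairs 1 and 3 were above 0, and both arrays of pair 2 were at 0 or just below. The mean was 0.30 ± 0.33 (interval -0.13 to 0.74, limma adjusted p = 0.976), or 0.13 without pair 1, and the turned mean was -0.13. Its 3 clones stood at 0.44, 0.42 and 0.054. Slc6a8, the creatine carrier, stood at 0.62, -0.0066, -0.60 and -0.35, with a mean of -0.053 ± 0.62 and a turned mean of -0.46 ± 0.25 (limma adjusted p = 0.145). Most of that came from 1 of its 2 clones, whose SD over pairs was 1.18 against 0.16 for the other. The exchanger subunits Slc7a5 and Slc3a2, which form a leucine carrier together, stood at -0.017 ± 0.14 and 0.11 ± 0.23.

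The mitochondrial carriers Slc25a4 and Slc25a11 and the lactate carrier Slc16a1 were below 0 on all 4 arrays and are 3 of the 4 Slc genes below 0 at an unadjusted p under 0.05. The RefSeq sequence upstream of their starts is shown because these 3 carriers serve mitochondrial energy exchange and lactate transport. They were chosen after their values were seen, and Slc5a11, with a similar mean of -0.25, is not shown. With arrays 1 and 2 turned all 3 means were above 0, at 0.077 for Slc25a4, 0.10 for Slc25a11 and 0.10 for Slc16a1. Each line gives the 250 bases before the start, 5′ to 3′ on the strand of the gene, in GRCm38.p6, with capitals marking the letters CACGTG. The windows are chr8:46211063-46211312 on the minus strand for Slc25a4, chr11:70647040-70647289 on the minus strand for Slc25a11 and chr3:104638414-104638663 on the plus strand for Slc16a1.
Slc25a4: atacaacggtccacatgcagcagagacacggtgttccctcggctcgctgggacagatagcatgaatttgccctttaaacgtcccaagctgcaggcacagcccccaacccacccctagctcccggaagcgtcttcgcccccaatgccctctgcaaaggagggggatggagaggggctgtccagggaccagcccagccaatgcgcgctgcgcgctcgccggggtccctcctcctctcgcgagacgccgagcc
Slc25a11: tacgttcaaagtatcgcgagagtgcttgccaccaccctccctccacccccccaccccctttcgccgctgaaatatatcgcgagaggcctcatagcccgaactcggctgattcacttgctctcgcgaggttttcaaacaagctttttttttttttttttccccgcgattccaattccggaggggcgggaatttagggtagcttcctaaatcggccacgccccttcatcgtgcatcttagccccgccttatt
Slc16a1: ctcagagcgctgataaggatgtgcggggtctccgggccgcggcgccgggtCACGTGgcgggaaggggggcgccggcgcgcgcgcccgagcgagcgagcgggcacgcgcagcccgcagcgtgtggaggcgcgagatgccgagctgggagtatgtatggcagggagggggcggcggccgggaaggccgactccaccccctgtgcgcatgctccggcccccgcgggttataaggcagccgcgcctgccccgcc

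Of the 137 Slc genes, 102 matched the promoter table by symbol, with 133 windows. The E-box CACGTG, a palindrome that reads the same on both strands, was in the windows of 17 Slc genes. These were 18 of 133 windows or 13.5%, against 6.02% of all 32851 windows of the same length. Some genes have several windows, and the Slc genes that did not match have none. This difference in share was not tested. Among the 3 sequences above it occurs only in that of Slc16a1, from 200 to 195 bases before the start. The C/EBP-ATF response element, TGATGNAA on either strand, was in 3.01% of Slc windows and 3.45% of all windows. The estrogen-related receptor element TCAAGGTCA was in 0 of 133 Slc windows and 0.387% of all. The palindromic element shared by the glucocorticoid and mineralocorticoid receptors was in 0 of 133 and 0.00913% of all. For both of these elements 133 windows are too few to read anything from a count of 0. In 1 window, that of Slc49a4, an E-box and a C/EBP-ATF match share bases. These matches describe letters in the windows and are not binding sites.

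The Slc25 family had 8 genes with a mean above 0 and 12 below, and its median was -0.047 ± 0.14 (SD of pair medians). The median followed the dye orientation, at 0.17 and 0.080 on arrays 1 and 2 and -0.10 and -0.018 on arrays 3 and 4, and it was 0.10 without pair 3. With arrays turned it was -0.046, with 9 genes above 0 and 11 below. At an unadjusted p under 0.05, 2 of the 20 were below 0 as deposited (2.63% of all genes) and 7 turned (13.8% of all genes), and none was above 0 in either reading. The 7 were Slc25a1, Slc25a13, Slc25a20, Slc25a26, Slc25a30, Slc25a39 and Slc25a46, and by limma none of them passed an adjusted p of 0.05. Slc25a17, placed here by its symbol, is a peroxisomal carrier.

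Slc25a4, the adenine nucleotide translocase of heart and muscle, exports ATP from mitochondria. It stood at -0.29, -0.38, -0.10 and -0.29 on arrays 1 to 4. All 4 values were below 0, and array 3 was nearest to 0. The mean was -0.24 ± 0.13 (n = 3 pairs; interval -0.45 to -0.023; unadjusted p = 0.038, limma adjusted p = 0.868), and the turned mean was 0.077 ± 0.19. Slc25a5, the translocase of proliferating and other cells, stood at 0.63, 0.20, -0.10 and 0.29. It was above 0 on 3 of 4 arrays with a mean of 0.26 ± 0.36 (limma adjusted p = 1.0), or 0.072 without pair 1, and a turned mean of -0.23 ± 0.35. The 2 paralogues are close in sequence, so a cDNA spot of 1 can bind transcript of the other, and the difference between them was not tested.

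Slc25a3, which imports the phosphate used for ATP synthesis, stood at -0.12, -0.16, -0.27 and -0.034 on arrays 1 to 4. It was below 0 on all 4 arrays, with a mean of -0.16 ± 0.091 (interval -0.35 to 0.029, limma adjusted p = 0.933). One of its 2 clones carried the value, at -0.31 ± 0.17, and the other was flat at -0.0074 ± 0.017. Slc25a11, the oxoglutarate-malate carrier of the malate-aspartate shuttle, stood at -0.30, -0.44, -0.12 and -0.18. Its mean was -0.24 ± 0.11 (interval -0.45 to -0.043; unadjusted p = 0.029, limma adjusted p = 0.863) and the turned mean 0.10 ± 0.21. Its clones had means of -0.19 and -0.30, but their SDs over pairs, 0.27 and 0.43, were both larger than that of the gene. In pairs 1 to 3 one clone stood at 0.12, -0.32 and -0.38 and the other at -0.73, -0.30 and 0.14, so they ran in opposite order, and their average varied less than either.

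Of the 20 Slc25 genes, 5 were above 0 on arrays 1 and 2 and below 0 on arrays 3 and 4, and 1 had the opposite pattern. Slc25a13, the aspartate-glutamate carrier of the same shuttle, stood at 1.28, 0.23, -1.55 and -0.26 on arrays 1 to 4, and Slc25a1, which exports citrate, stood at 0.65, 0.63, -1.09 and -0.40. In both genes arrays 1 and 2 were above 0 and arrays 3 and 4 below. Their means were -0.10 ± 1.42 and -0.11 ± 0.89 as deposited, and -1.03 ± 0.69 (limma adjusted p = 0.170) and -0.75 ± 0.30 (limma adjusted p = 0.0989) turned. Slc25a20, the carnitine-acylcarnitine translocase that brings fatty acids to oxidation, was above 0 on array 1 alone. It stood at 0.42, -0.078, -0.65 and -0.42, with a mean of -0.16 ± 0.54 and a turned mean of -0.41 ± 0.24. Slc25a39, a carrier tied to mitochondrial glutathione, stood at 0.57, 0.36, -0.53 and -0.81, with a turned mean of -0.56 ± 0.025, and Slc25a26, the S-adenosylmethionine carrier, had a turned mean of -0.49 ± 0.044 (limma adjusted p = 0.081 for both). Slc25a33, a pyrimidine nucleotide carrier, was above 0 on all 4 arrays, at 0.17, 0.20, 0.43 and 0.057, with a mean of 0.24 ± 0.16 (limma adjusted p = 0.931).

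Among the 6 monocarboxylate carriers, 2 had a mean above 0 and 4 below. Slc16a1, which carries lactate and pyruvate with protons, stood at -0.21, -0.55, -0.13 and -0.085 on arrays 1 to 4. All 4 were below 0, with array 2 the lowest. The mean was -0.22 ± 0.094 (interval -0.41 to -0.026; unadjusted p = 0.035, limma adjusted p = 0.863), and -0.29 or -0.14 with pair 2 taken from array 2 or array 4 alone. Its 2 clones stood at -0.090 ± 0.34 and -0.34 ± 0.35, both with a larger SD than the gene. Slc16a3, the lactate exporter of glycolytic cells, stood at 0.40, 1.21, -1.07 and -0.20, with a mean of -0.056 ± 0.88 and a turned mean of -0.72 ± 0.34 (limma adjusted p = 0.115). Its sign followed the dye orientation. Slc16a10, a carrier of aromatic amino acids, was above 0 on all 4 arrays with a mean of 0.21 ± 0.14.

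Metal ion carriers had 11 of 15 means above 0, with a median of 0.039 ± 0.044 as deposited, and 7 of 15 with arrays turned, where the median was -0.037. None of the 15 reached an unadjusted p under 0.05 as deposited (5.44% of all genes). With arrays turned, 1 was above 0 (Slc30a4, against 6.97% of all genes) and 1 below (Slc11a2, against 13.8%). Slc31a2, a copper transporter of the endosomal membrane, stood at 1.98, 0.83, 0.0078 and 0.16 on arrays 1 to 4. All 4 were above 0, but arrays 1 and 2 alone were far from it, and 1 pair decided its size. The mean, 0.83 ± 1.02 (interval -0.43 to 2.09, limma adjusted p = 0.995), was 0.25 without pair 1 and -0.77 with arrays turned. Slc39a10, a zinc importer, was above 0 on all 4 arrays, at 0.25, 0.75, 0.050 and 0.18, with a mean of 0.25 ± 0.21. Slc39a14, a zinc and iron importer, stood at 0.22 ± 0.41 as deposited and -0.29 ± 0.24 turned, the iron importer Slc11a2 at -0.049 ± 0.24 over 3 clones, and the iron exporter Slc40a1 at 0.038 ± 0.47.

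Among the nucleotide sugar and nucleoside carriers, 1 of 17 was above 0 at an unadjusted p under 0.05 as deposited (2.81% of all genes). With arrays turned, 4 were below 0 (13.8% of all genes). Slc35e1, of the nucleotide sugar carrier family, stood at 0.15, 0.41, 0.19 and -0.0092 on arrays 1 to 4. Its mean of 0.18 ± 0.030 (unadjusted p = 0.034, limma adjusted p = 0.863) again has a smaller SD than either of its 2 clones, 0.20 and 0.24, and the arrays of pair 2 stood at 0.41 and -0.0092. Slc35a1, the CMP-sialic acid carrier, stood at -0.19 ± 0.15, and Slc29a1, the nucleoside carrier that takes up adenosine, at -0.034 ± 0.26 as deposited and -0.23 ± 0.061 turned. Slc28a2, a sodium-coupled nucleoside carrier, stood at 0.25, 0.30, -1.09 and -0.55, with a mean of -0.32 ± 0.69 as deposited and -0.59 ± 0.44 turned.

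The remainder of 29 genes held no gene at an unadjusted p under 0.05 as deposited (5.44% of all genes). With arrays turned it held 3 above 0 (6.97% of all genes) and 3 below (13.8% of all genes). Slc17a9, with the lowest mean of any Slc gene, stood at -0.030, 0.16, -1.81 and -0.28 on arrays 1 to 4. Array 3 alone was far from 0, and the mean was -0.63 ± 1.02 (limma adjusted p = 1.0). Slc48a1, a heme carrier, stood at 0.95, 0.48, -0.56 and -0.54, with a mean of 0.12 ± 0.76 as deposited and -0.67 ± 0.24 turned (limma adjusted p = 0.0946). Its sign followed the dye orientation. Slc17a9, Slc28a2, Slc48a1, Slc25a39, Slc25a26 and Slc26a10 were chosen after their values were seen. Slc37a4, the glucose-6-phosphate carrier of the endoplasmic reticulum, and Slc23a2, a vitamin C carrier, were below 0 on all 4 arrays, at -0.17 ± 0.10 and -0.18 ± 0.16. Slc13a4, a sodium-sulfate carrier, was above 0 on all 4 arrays at 0.20 ± 0.15.

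**Figure D2:**
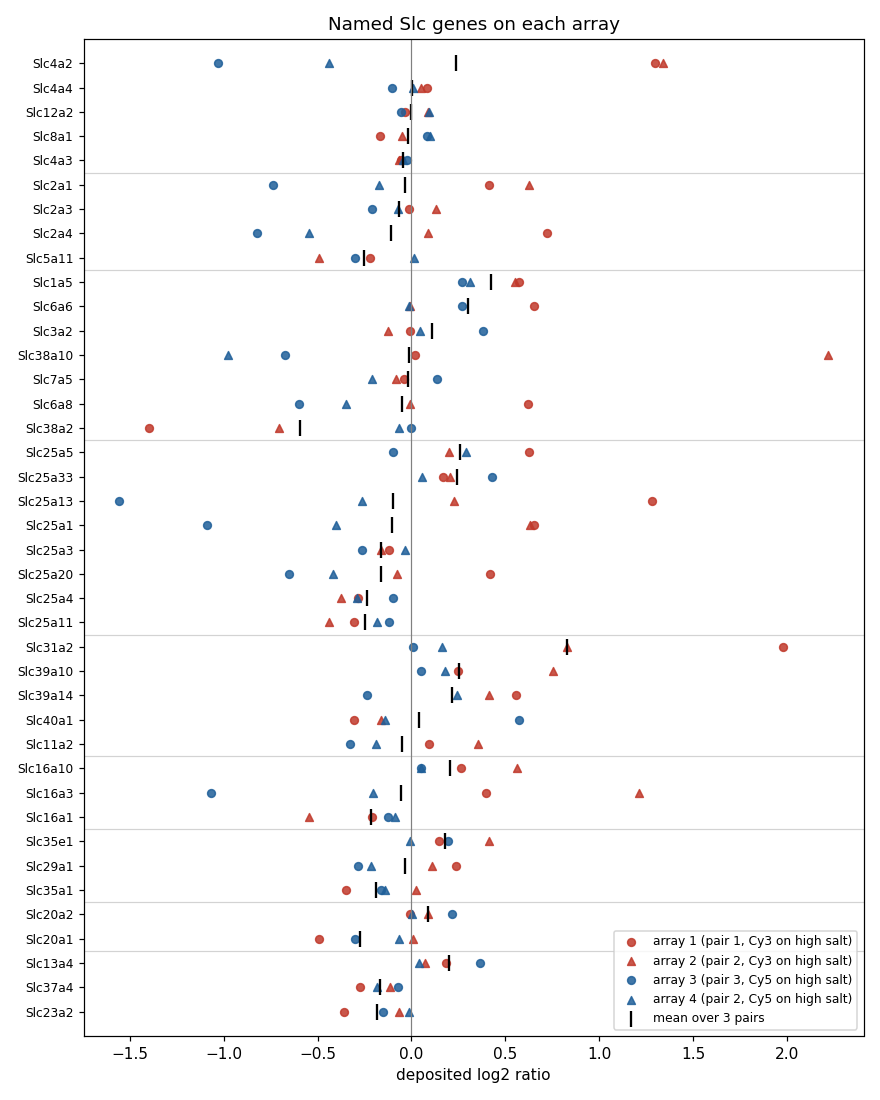
Deposited log2 ratio (x axis) of each of the 40 Slc genes named by rule (y axis, grouped by family) on each of the 4 arrays; red marks arrays with Cy3 on high salt, blue those with Cy5, triangles the 2 arrays of pair 2, and black bars the mean over 3 pairs. Slc4a2 lies at 1.29 and 1.34 in red and at -1.03 and -0.44 in blue, while the 4 values of Slc1a5 all lie above 0 and those of Slc25a4 all below.

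The sign patterns give the contrast between both readings over all members. Of 137 Slc genes, 10 were above 0 on all 4 arrays, against 7.01% of all named genes, and 11 were below 0 on all 4, against 7.75%. More genes changed sign with the dye orientation. Above 0 on arrays 1 and 2 and below 0 on arrays 3 and 4 were 23 Slc genes, against 18.7% of all genes, and 15 had the opposite pattern, against 12.7%. The Slc shares, 7.3%, 8.03%, 16.8% and 10.9%, were near those of all named genes. The 23 genes included Slc2a1, Slc2a4, Slc4a2, Slc16a3, Slc25a1 and Slc25a13, and 5 of the 23 belong to the Slc25 family, 4 to the nucleotide sugar and nucleoside carriers and 3 to the sodium, chloride and bicarbonate carriers.

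**Figure D3:**
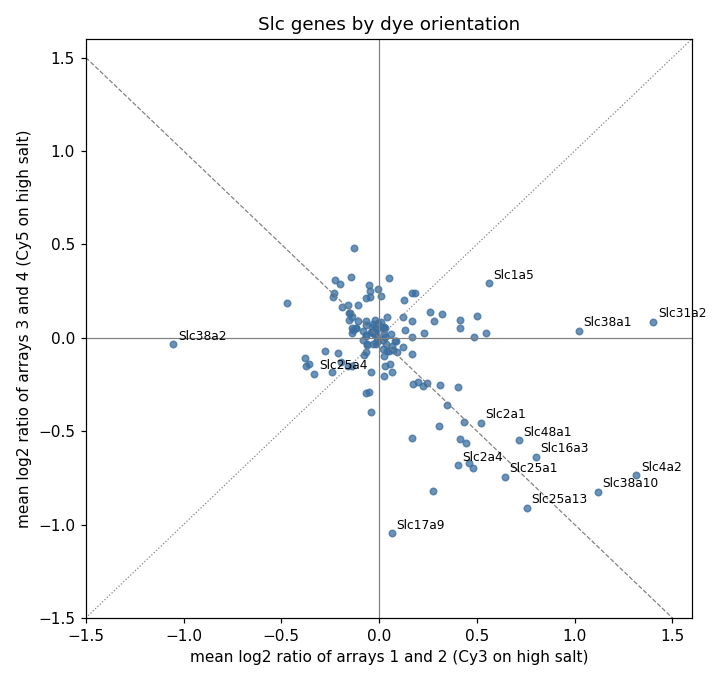
Mean log2 ratio of arrays 1 and 2, with Cy3 on high salt (x axis), against that of arrays 3 and 4, with Cy5 on high salt (y axis), for each of 137 Slc genes; the dotted line marks equal values and the dashed line equal size with opposite sign. Slc25a13, Slc25a1 and Slc2a1 lie near the dashed line at lower right, and Slc4a2 lies far to the right and above that line. Slc1a5 lies above 0 on both axes, and Slc38a2, Slc38a1 and Slc31a2 lie far from 0 on the x axis alone.

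Clones of 1 Slc gene often disagreed. Of the members, 31 had several clones and 106 had 1. The clone means of a gene spanned 0.0054 to 0.63 with a median span of 0.20, while the median absolute mean of an Slc gene was 0.051. In 19 of the 31 genes all clones had 1 sign, and in 12 they did not. In 8 of the 31 the SD of the gene over pairs was smaller than that of each of its clones, and these 8 include Slc16a1, Slc25a11 and Slc35e1, which are 3 of the 6 genes at an unadjusted p under 0.05. The other 3, Slc1a5, Slc25a4 and Slc5a11, had 1 clone each.

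**Figure D4:**
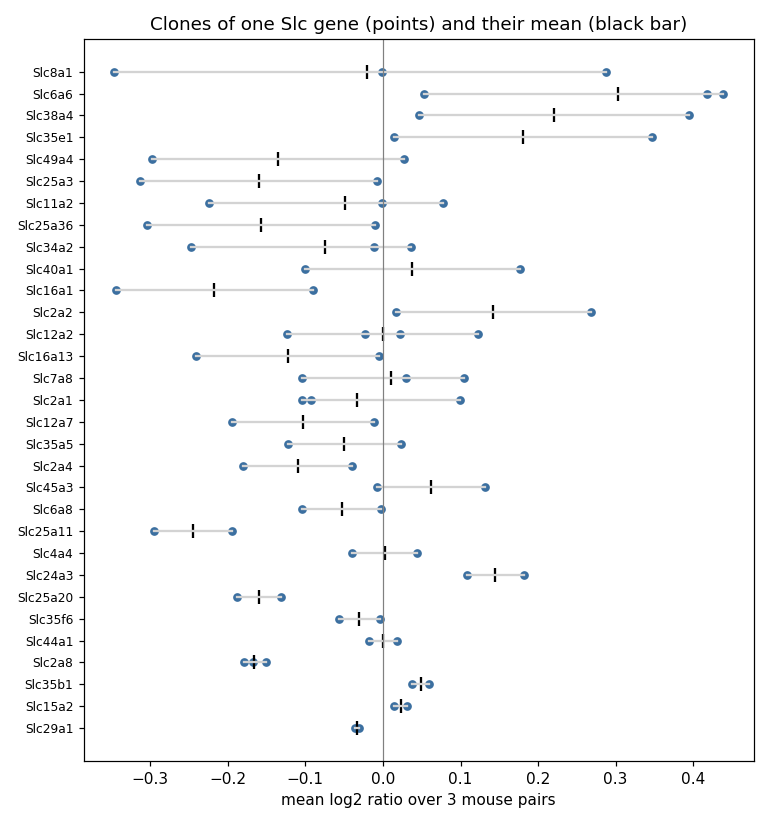
Mean log2 ratio over 3 mouse pairs (x axis) of each clone (points) of the 31 Slc genes with several clones (y axis, sorted by the span of their clones), with the gene mean as a black bar. Slc8a1 at the top has clones at -0.35 and 0.29, and the clones of Slc29a1 at the bottom coincide.

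A list of genes that work with these carriers without an Slc symbol was set beside them. Of 25 listed, 20 were measured, 12 above and 8 below 0, with a median of 0.045, or 0.036 with arrays turned. By limma 0 passed an adjusted p of 0.05 and 2 had an unadjusted p under 0.05, both above 0 (2.81% of all genes). With arrays turned, 3 were above 0 (6.97% of all genes) and 5 below (13.8% of all genes) at that threshold. The 2 called as deposited were Atp1b1, a subunit of the sodium pump that sets the gradient most of these carriers use, at 0.24 ± 0.12, and Txnip, which lowers glucose carriers at the membrane, at 0.62 ± 0.33 (limma adjusted p = 0.863 for both). Turned, they stood at -0.060 and 0.065. For Txnip the arrays of pair 2 disagreed, at -0.26 on array 2 and 0.87 on array 4. Wnk1, the kinase upstream of chloride cotransporters, stood at 0.39 ± 0.32 (-0.30 turned), its downstream kinases Stk39 and Oxsr1 at -0.20 ± 0.37 (0.39 turned) and -0.19 ± 0.40 (-0.26 turned), and Bsg, the partner that takes lactate carriers to the membrane, at -0.34 ± 0.81 (-0.70 turned). The highest mean of the list was that of Ucp1, an uncoupling protein of brown fat mitochondria, at 0.91 ± 1.46, with array 3 at 2.59 and the other arrays between -0.095 and 0.42. Sgk1, a kinase induced by mineralocorticoids, and Mtch1, a relative of the Slc25 carriers, both stood at 0.47, with SDs of 0.65 and 0.75, and at 0.51 and -0.73 turned.

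Markers of cell types were set beside these values. All 7 measured fibroblast markers were above 0, from 0.057 to 1.04 with a median of 0.37 (-0.085 with arrays turned), and 3 had an unadjusted p under 0.05 by limma (2.81% of all genes), none of them turned. In the other marker lists 1 adipocyte marker, Fabp4, was above 0 at that threshold (2.81% of all genes). Below 0 there was 1 macrophage and leukocyte marker, Cd14 (2.63% of all genes). With arrays turned, 2 endothelial markers were above 0 (6.97% of all genes) and 1 below (13.8% of all genes). Endothelial markers had 2 of 4 above 0, adipocyte markers 2 of 4, macrophage markers 1 of 3, smooth muscle markers 3 of 3 and erythroid markers 1 of 2. Only 2 of 10 listed heart muscle markers were measured, at 0.054 and 0.067. The part of cell makeup in the Slc values was not tested.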

How the data were processed

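Each spot of each array has 1 dye ratio on a log scale, as the authors deposited it, read here as log2. Neither the base nor background correction, normalization or the turning of arrays with exchanged dye is given in the sources used here. Of 17664 features, 17207 had values on all 4 arrays and 457 on none. Gene names came from the platform annotation (12563 features with 1 symbol, 412 with several, 4689 with none), checked by gene ID against RefSeq GRCm38.p6, where 12555 were found. Clones of 1 symbol were averaged. Arrays 2 and 4, from the same mice, were averaged into 1 pair. For 8106 genes, limma 3.58.1 (R 4.3.3; lmFit with an intercept, then eBayes) set the mean of the 3 pair ratios against 0, with Benjamini-Hochberg adjustment at 0.05. The fit was tested on simulated data. The 95% intervals use the same fit. Precision is limited by how few arrays there are.

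The members and lists were chosen with earlier results of these data known. Named genes were a list of 35 known carriers, of which 29 were measured, up to 6 in each direction with 1 sign on all arrays and the largest mean, the 4 largest with arrays turned, and those at an unadjusted p under 0.05, 40 in all. Clones with several symbols were left out.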

Additional observations from a re-analysis of the deposited data

How the results depend on the processing

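No Slc gene passed an adjusted p of 0.05 by limma under any of the 12 alternatives run. With arrays 1 and 2 turned, 5 Slc genes were above and 23 below 0 at an unadjusted p under 0.05, against 2 and 4, and the amino acid median was -0.012. With a dye covariate the counts were 11 and 9, with scaled arrays 4 genes were above 0, and with genes of 1 clone only 1 was above and 2 were below. Apart from the turned reading, shares of all genes at that threshold are not given for the alternatives, those without 1 pair included. Such counts alone are therefore no result about the Slc genes. With pair 2 from array 4 alone the median of all Slc genes was -0.012 and that of sodium, chloride and bicarbonate carriers -0.036. With the median of clones the amino acid median was 0.035. Leaving out 1 pair gave 0 genes above 0 without pair 2 to 10 without pair 3, and 1 below without pair 2 to 5 without pair 3. The median of all Slc genes then ran from -0.0079 without pair 2 to 0.0089 without pair 1, that of sodium, chloride and bicarbonate carriers from -0.040 without pair 2 to 0.024 without pair 3, that of glucose carriers from -0.090 without pair 1 to 0.026 without pair 3, that of amino acid carriers from 0.026 without pair 1 to 0.041 without pair 2, and that of mitochondrial carriers from -0.092 without pair 1 to 0.10 without pair 3. Without pair 1 or pair 3, and with 1 array of pair 2, the dye orientations are unbalanced.

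Turning arrays 1 and 2 changed the sign of 22 of the 40 named genes. Of these, 13 had 1 sign on all arrays or an unadjusted p under 0.05, and they became 0.10 for Slc16a1, -0.16 for Slc16a10, -0.14 for Slc1a5, 0.078 for Slc23a2, 0.10 for Slc25a11, 0.077 for Slc25a4, -0.77 for Slc31a2, -0.055 for Slc35e1, 0.055 for Slc37a4, 0.57 for Slc38a2, -0.16 for Slc39a10, 0.014 for Slc4a3 and 0.058 for Slc5a11. No other alternative run changed the sign of these 13 genes, but most of these runs could not have done so. All but Slc35e1 and Slc5a11 had 1 sign on all 4 arrays, so dropping a pair or an array could not change theirs. The dye covariate left their means unchanged. On turning, the largest shifts among the other 9 of the 22 were those of Slc4a2 to -1.07, Slc39a14 to -0.29 and Slc25a5 to -0.23. The cause of these differences was not tested. Each ratio sets the 2 mice of a pair against each other, so every fit is within pairs.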

Other observations

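Clones annotated to an Slc gene together with a second gene were left out above, and 8 of them had values. The clone of Unc5b and Slc4a2 stood at -0.091, -0.098, -0.026 and 0.021 on arrays 1 to 4, with a mean of -0.052 ± 0.035 (SD, n = 3 pairs), without the values far from 0 that the clone named for Slc4a2 alone gave. The 2 clones of Mrps6 and Slc5a3, the latter a sodium-coupled inositol carrier, stood at 0.089 ± 0.041 and 0.078 ± 0.26. The 2 clones of Atg4d and Slc44a2, the latter a choline carrier-like protein, stood at 0.38 ± 0.49 and 0.059 ± 0.058. The clones of Slc10a5 and Impa1, of Slc25a44 and Nadk, and of Slc6a20a and Slc6a20b stood at 0.069 ± 0.28, -0.047 ± 0.40 and -0.047 ± 0.072.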
